A study of Mus musculus with 97 samples.

Results

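Jejuna of 7 mice given naproxen together with tryptophan were compared with jejuna of 8 control mice across the 17185 genes that passed a filter on low counts, of 51368 genes in the table. The 15 libraries were chosen by their labels (tissue, experimental batch 4 and treatment) from a series of 97 libraries of heart and jejunum, which asks how anti-inflammatory drugs and tryptophan, alone or combined, alter transcript levels. All mice were female C57BL/6 from Jackson, 11 weeks old after 3 weeks on their diet. Mice of the combination group ate chow with 1323 ppm naproxen and received tryptophan at 50 mg/kg in PBS by intraperitoneal injection each day of the last week. Controls ate plain chow and received PBS injections, so daily injection was common to both groups. Single treatments served for values side by side: naproxen chow with PBS injections (7 mice) and plain chow with tryptophan injections (8 mice). These and a celecoxib group of 8 entered the same fit, and so bear on its spread, batch terms, filter and scaling. Dissection took place in 4 labelled batches, with 2 control and 2 combination mice in each, except that batch 4 held 1 combination mouse. The tissue was a chopped and frozen piece of flushed jejunum of mixed cells. In such bulk RNA, fewer cells of a type and less RNA per cell cannot be told apart.

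Naproxen blocks both cyclooxygenases, the enzymes that turn arachidonic acid into prostaglandins. In the small intestine prostaglandins sustain mucus, blood flow and epithelial repair, and drugs of this class are known to injure the mucosa. Dietary tryptophan enters enterocytes through the neutral amino acid carrier encoded by Slc6a19. In the gut wall it is turned into serotonin by tryptophan hydroxylase in enterochromaffin cells or into kynurenine by indoleamine dioxygenase. Gut bacteria turn part of it into indoles that can activate the aryl hydrocarbon receptor.

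The 15 libraries held 12.15 to 26.91 estimated counts, in units of 1e6. The most abundant transcript, Rn7s1 (a small cytoplasmic RNA), took 4.06% to 20.6% of counts, and mitochondrial transcripts took 3.11% to 12%. Levels are given in CPM, counts per 1e6 of the scaled library size. Genes of absorptive enterocytes were present in every library, with Fabp2 (a fatty acid binding protein) at 4910 to 12900 CPM and Vil1 (villin, a brush border protein) at 992 to 2710 CPM. The gastric genes Gkn1 and Tff1 were at 0 in all 15. Fabp6, the ileal bile acid binding protein, exceeded 1000 CPM in control 1 (2560), combination 1 (2250) and combination 2 (4710). In those libraries the ileal bile acid carrier Slc10a2 stood at 109 to 276 CPM, and in the other 12 it did not exceed 38.2 CPM. Lactase (Lct), highest in the jejunum, was at 87.5 CPM in combination 2, the lowest of all. All 3 libraries with Fabp6 above 1000 CPM belonged to dissection batch 2. Among the other 12, controls held 1.79 to 10.1 CPM of Slc10a2, so the 38.2 CPM was that of a combination library. It was kept in the fits without the libraries high in Fabp6. Over single omissions the log2 difference of Slc10a2 was lowest, at 0.296, without combination 4, which was of batch 3. Combination 7, from batch 1, stood apart in another way, with the highest mitochondrial and Rn7s1 shares and the farthest position on the first principal component of the 2000 most variable genes. That component held 32.6% of the variance, of which group accounted for 0.0937% and dissection batch for 57.6%. The second held 10.9%, of which group accounted for 41.2%.

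**Figure D1:**
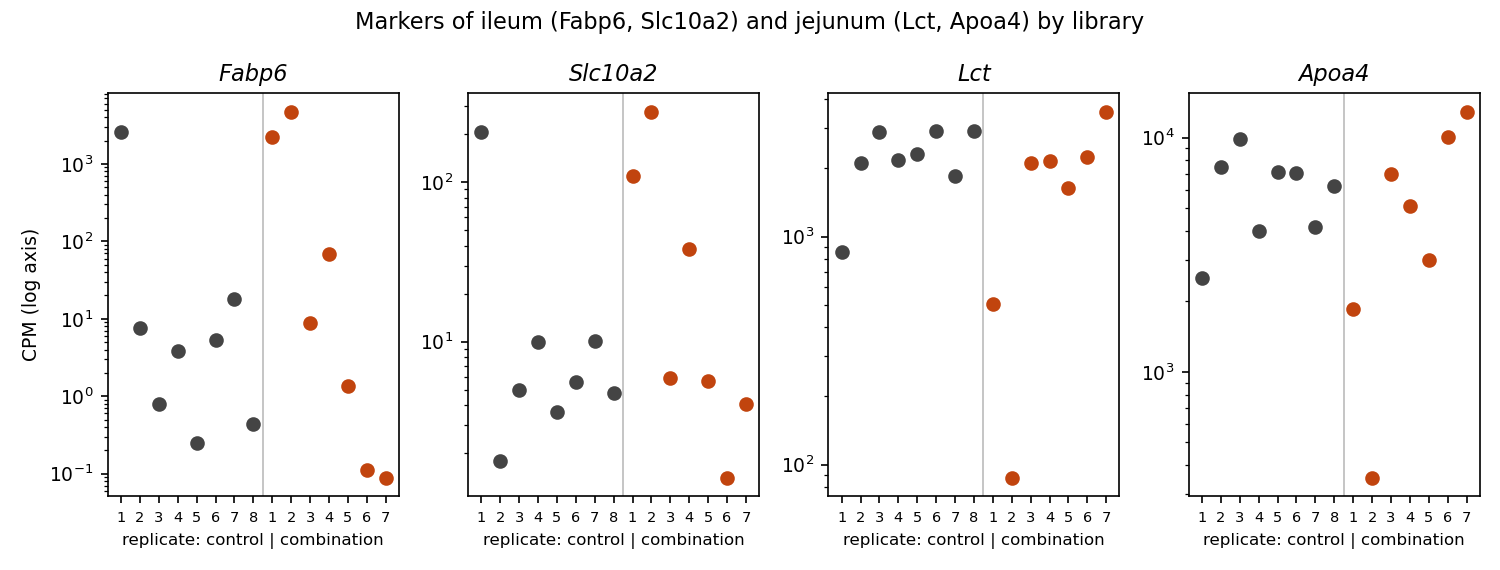
Levels of ileal (Fabp6, Slc10a2) and jejunal (Lct, Apoa4) transcripts in CPM on log axes, 1 point per library (grey, control; orange, combination), with the replicate number below. Control 1, combination 1 and combination 2 are high for both ileal transcripts.

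The question was which transcripts differed when both agents were given. No gene passed an adjusted p of 0.05 in edgeR's quasi-likelihood test (0 of 17185, 0%), and the lowest adjusted p was 0.139. At an unadjusted p below 0.05 stood 1028 genes (5.98%), of which 435 were higher (2.53% of all tested) and 593 lower (3.45%) in the combination group. That number was 682 without control 3, 639 without combination 2 and 7 and 1604 with a B cell covariate. The median log2 difference of all tested genes was 0.0164 (combination minus control, 1 unit being a 2-fold difference), and 53.5% of them were higher. DESeq2 called 10 genes (1151 below that level without adjustment), and limma's voom called 1 (1026). Those called by DESeq2 included Retreg1, Selenop, Cemip, Smox, Ntan1, Sprr2a2 and Gml. The others were the predicted genes Gm10233 (log2 difference -23.9) and 2010106E10Rik and the immunoglobulin segment Ighv5-9. In 1 set of data simulated to test the scripts, 10.9% of the calls of DESeq2 were false, against 4.67% for edgeR. That set used edgeR's own estimates of spread and no batch differences, so it cannot weigh the 10 calls. Of 67 genes changed 1.5-fold there, edgeR recovered 26 and DESeq2 32. Of 67 changed 2-fold they recovered 55 and 59. The call of voom was Retreg1. Levels of the groups did not overlap for 1 gene above control (0.00582% of tested genes) and 1 below (0.00582%), both chosen for that after their values were seen. Clpb, which encodes a mitochondrial disaggregase, stood at 15.7 to 18.6 CPM in controls and 18.8 to 23.7 CPM in the combination group (log2 difference 0.20 ± 0.07 SE, adjusted p = 0.728). The antisense transcript 4930515G01Rik stood at 0.907 to 1.82 CPM in controls and 0.53 to 0.9 CPM in the combination group (log2 difference -0.82 ± 0.24 SE, not past the adjusted threshold), and its counts may share reads with the gene on the other strand.

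Retreg1 had the smallest p of all genes. It encodes a receptor of the endoplasmic reticulum that hands parts of that organelle to autophagy, and lies on chromosome 15 (25843180 to 25973687, GRCm38, protein-coding). Controls held 65.1, 88 and 128 CPM (lowest, median and highest) and the combination group 26.4, 37.2 and 83.3 CPM. Every treated mouse but combination 7 lay below every control. The log2 difference was -0.97 ± 0.18 (SE), with an adjusted p of 0.139 in edgeR and 0.00112 in DESeq2. Within dissection batches 1 to 4 the difference was 0.127, -1.4, -1.524 and -1.293, so batch 1, which held combination 7, did not share the sign of the other 3. Without combination 7 edgeR called it (adjusted p = 0.0025), as it did without control 7 (adjusted p = 0.0419). It was also called by edgeR with combination 2 and 7 both left out (adjusted p = 0.0214) and with a surrogate variable as covariate (adjusted p = 0.0129). The adjusted p of voom was 0.0412. The lowest adjusted p of any gene was 0.785 without combination 2 and 0.955 without the libraries high in Fabp6. With only the libraries of both groups it was 0.632. Retreg1 falls outside the naming rule, which asks for 1 sign in all batches, and was chosen after its value was seen.

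Among genes with the same sign in all 4 batches, Cemip and Smox stood at the head of those higher in the combination group. Cemip (chromosome 7, 83932857 to 84086502) encodes a protein that binds and breaks down hyaluronan of the matrix. It was read at 2.07, 3.6 and 4.49 CPM in controls and at 3, 7.01 and 12.2 CPM in the combination group. All treated mice but 1 exceeded the highest control. The log2 difference was 1.17 ± 0.25 (adjusted p = 0.316 in edgeR, 0.0204 in DESeq2), and it was 1.25 without the libraries high in Fabp6. Smox (chromosome 2, 131491496 to 131525922) encodes spermine oxidase, which turns spermine into spermidine and releases hydrogen peroxide. It stood at 10.6, 12.6 and 21.4 CPM in controls and 15.6, 19.9 and 38 CPM in the combination group, where the overlap came from control 1 alone. Its log2 difference was 0.70 ± 0.15 (adjusted p = 0.316 in edgeR, 0.0322 in DESeq2). Within the batches it was 0.505, 1.062, 0.698 and 0.38.

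Selenop led the lower genes of that kind. It encodes selenoprotein P, the secreted carrier of selenium, and lies on chromosome 15 (3268547 to 3280508). Controls held 5311, 7855 and 11370 CPM and treated mice 2232, 5131 and 6008 CPM. The ranges overlapped only through the lowest control, control 1. The log2 difference was -0.90 ± 0.21 (adjusted p = 0.316 in edgeR, 0.0204 in DESeq2), and it was -0.432, -1.145, -0.928 and -1.274 within the batches. Ntan1, an amidase of the N-degron pathway of protein breakdown, went from a median of 28.2 CPM (23.6 to 33.4) to 22.2 CPM (15.1 to 24.3), with a log2 difference of -0.38 ± 0.09 and an adjusted p of 0.316.

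The other 8 of the 12 genes named by smallest p had adjusted p-values of 0.316 to 0.351 in edgeR and overlapping ranges. Higher in the combination group were Fut2, a fucosyltransferase of the gut epithelium (log2 difference 1.55), Bdkrb1, the inducible bradykinin receptor (1.47), Sprr2a2 (1.26) and Itih3, a protein that ties hyaluronan into the matrix (1.42). Lower were Lrat, which esterifies retinol (-0.39), Cnih4, a cargo receptor for export from the endoplasmic reticulum (-0.41), Maf1, a repressor of RNA polymerase III (-0.29), and the zinc finger gene Zkscan14 (-0.44). The lower genes were read at 6.9 CPM or more in every library. Bdkrb1 and Fut2 were scarce, with no control above 0.517 and 0.586 CPM. Both met the rule of a mean of 1 CPM in either group only through the combination group, where they were high. For Fut2 the highest level, 4.7 CPM in combination 2, stood far above the next, and the log2 difference was 1.04 without the libraries high in Fabp6.

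**Figure D2:**
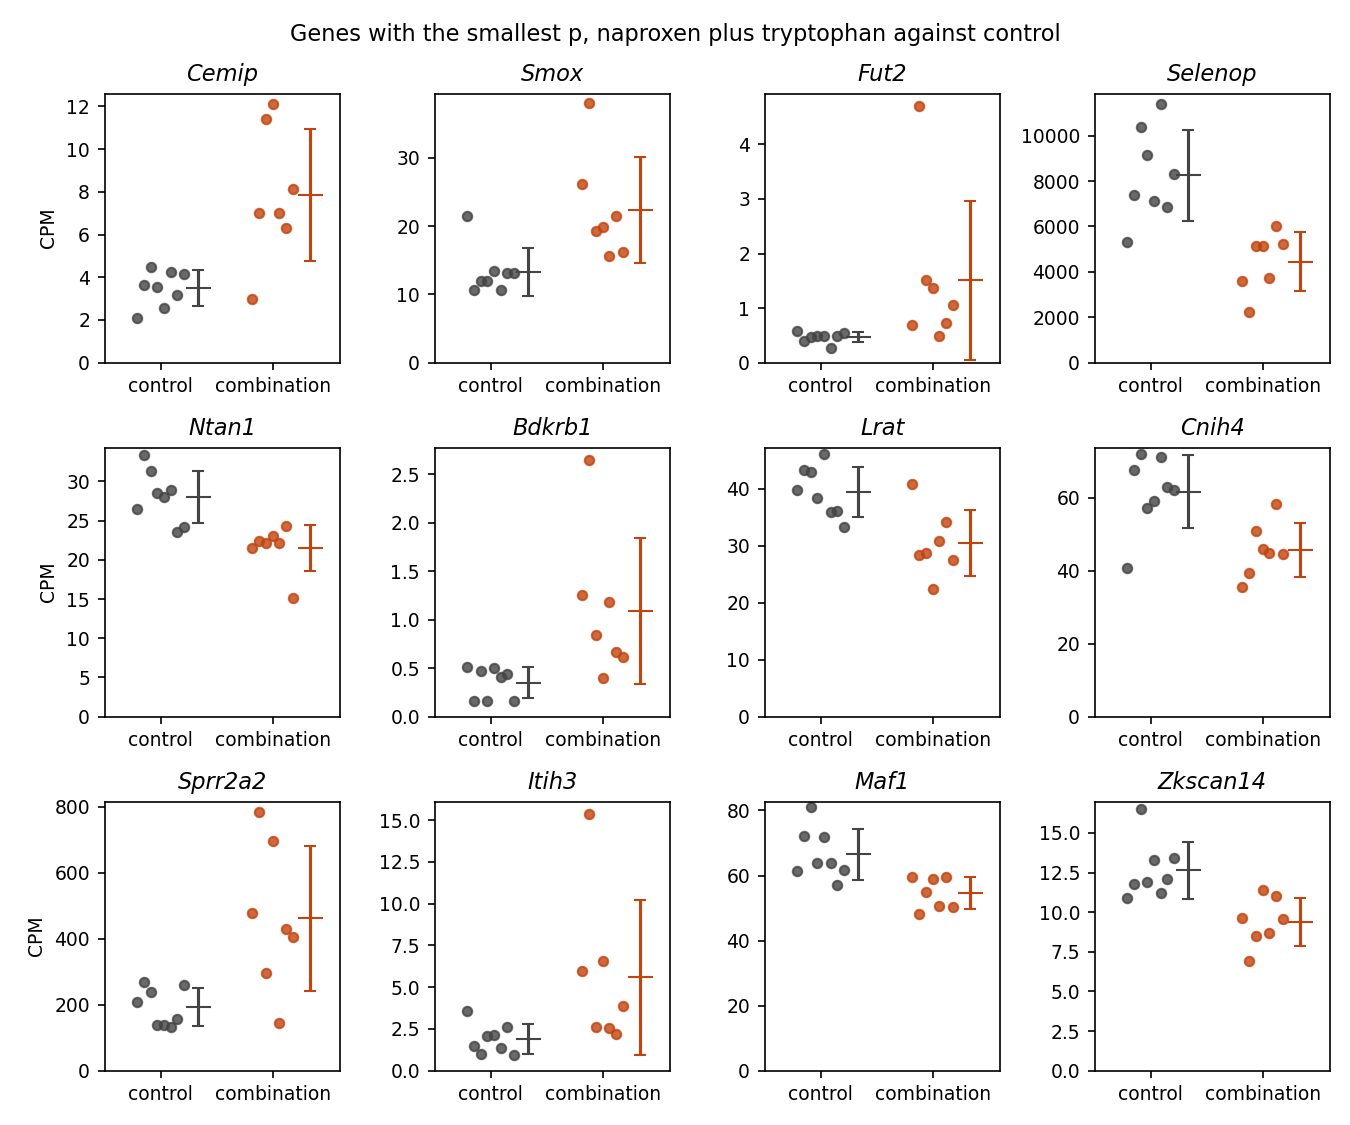
Levels in CPM of the 12 genes with the smallest p that met the naming rule, in 8 control and 7 combination libraries (points), with mean and SD beside them. Cemip is above 6 CPM in all combination libraries but 1 and below 5 CPM in every control.

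The targets of naproxen did not pass the test. Ptgs1, the constitutive cyclooxygenase (chromosome 2, 36230426 to 36252272), was read at 50.2, 69 and 150 CPM in controls and 47.1, 87.5 and 167 CPM in the combination group. Ptgs2, the inducible one (chromosome 1, 150100031 to 150108227), was read at 4.83, 8.76 and 23.1 CPM and at 3.71, 11.6 and 48.1 CPM. The ranges overlapped for both genes, and for Ptgs2 the treated range extended further on either side. The log2 differences were 0.24 ± 0.26 (adjusted p = 0.914) for Ptgs1 and 0.29 ± 0.39 (adjusted p = 0.928) for Ptgs2, and the latter was -0.06 without the libraries high in Fabp6. Of 29 tested genes for prostanoid synthesis and receptors, 19 were higher and 10 lower, with a median of 0.109, where 53.5% of all tested genes were higher. The direction turned without the libraries high in Fabp6, to 9 higher and 19 lower with a median of -0.057. In the fit with all libraries, 2.53% of all tested genes were higher and 3.45% lower at an unadjusted p below 0.05. Of the list, 1 gene was higher and 3 were lower at that level. The higher was Ptger4, a receptor of prostaglandin E2, at 30.4, 32.9 and 40.3 CPM in controls and 34.6, 40.3 and 49.3 CPM in treated mice (log2 difference 0.31 ± 0.10, adjusted p = 0.716). Lower were Hpgd and Ptgr1, successive enzymes of prostaglandin breakdown, at -0.47 and -0.76, and the phospholipase gene Pla2g12b at -0.41 (adjusted p = 0.728, 0.728 and 0.797). Both breakdown enzymes are made in the epithelium. Of 15 tested genes of the lipoxygenase and leukotriene pathway, 0 stood at an unadjusted p below 0.05, and their median was -0.058.

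No gene that handles tryptophan passed the test. Slc6a19, its main carrier on the brush border, was read at 637, 1204 and 1681 CPM in controls and 420, 990 and 1126 CPM in the combination group (log2 difference -0.43 ± 0.20, adjusted p = 0.816). All treated mice lay below the control median. Among 19 tested transporters of tryptophan and neutral amino acids, 13 were lower and 6 higher, with a median of -0.252, and Slc6a19 was the only 1 at an unadjusted p below 0.05. Without the libraries high in Fabp6 that median was -0.045. Of all tested genes 3.45% were lower at an unadjusted p below 0.05. In the kynurenine pathway and NAD synthesis, 12 of 15 tested genes were lower (median -0.119), 3 of them at that level. That median was -0.02, with 0 genes at that level, without the libraries high in Fabp6. Ido1, the dioxygenase that starts the pathway, stood at 20.3, 24.1 and 40.2 CPM in controls and 4.9, 13.2 and 43.5 CPM in treated mice. Combination 5 was the highest of all 15 and the other treated mice lay below every control. The log2 difference was -0.69 ± 0.34 (adjusted p = 0.816). The aminotransferases Kyat1 (-0.48) and Kyat3 (-0.34), which make kynurenic acid, were the others. Tdo2, the dioxygenase best known from liver, did not pass the filter: its highest level was 2.74 CPM.

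In the serotonin and melatonin pathway 16 genes were tested, with a median of -0.076, 1 higher and 1 lower at an unadjusted p below 0.05. The shares of all tested genes at that level were 2.53% higher and 3.45% lower. Tph1, the hydroxylase of enterochromaffin cells, was read at 2.48, 7.21 and 12.8 CPM in controls and 3.74, 4.62 and 9.56 CPM in treated mice (log2 difference -0.37 ± 0.27, adjusted p = 0.876). All treated mice but combination 6 lay below the control median. Slc6a4, which clears serotonin into enterocytes, was lower by the estimate (-0.42 ± 0.19, adjusted p = 0.814). Htr7, a serotonin receptor of nerves and immune cells, was higher: 0.0825, 0.282 and 0.69 CPM in controls against 0.308, 0.975 and 1.6 CPM (log2 difference 1.48 ± 0.37, adjusted p = 0.351). Its level was low, and the ranges overlapped.

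The aryl hydrocarbon receptor gene Ahr had a median of 26.1 CPM in both groups (log2 difference -0.01 ± 0.12, adjusted p = 0.997). Of its 12 tested family members and targets, 11 were lower and 1 higher, with a median of -0.18 and Lrat as the only 1 at an unadjusted p below 0.05. Cyp1a1, the classical target, was read at 4.21, 11.4 and 28.3 CPM in controls and 0.9, 2.26 and 33.3 CPM in the combination group. Combination 6 and 7, both of batch 1, were high and the others lay at the low end of the controls or below it. The log2 difference was -1.10 ± 0.67 (adjusted p = 0.846). Within batches 1 to 4 it was 1.263, -2.784, -2.152 and -3.347. Over all tested genes 2.53% were higher and 3.45% lower at an unadjusted p below 0.05. Among 39 tested cytochrome P450 and other phase I genes, 1 was higher, near that share, and 4 lower at that level (median -0.145). The higher was Ces2a, a carboxylesterase, at 189, 369 and 734 CPM in controls and 198, 1051 and 1350 CPM in treated mice (log2 difference 0.95 ± 0.37, adjusted p = 0.737). Lower examples were Cyp27a1 (-0.54) and Cyp4b1 (-0.52), with adjusted p-values of 0.728 and 0.814. Of 24 conjugation and drug export genes, 8 were higher and 16 lower, and at an unadjusted p below 0.05 stood 1 higher gene (Abcc3, an exporter of conjugates, 0.33) and 3 lower ones, among them the sulfotransferases Sult1d1 (-0.62) and Sult1b1 (-0.42). Of 34 glutathione transferases and NRF2 targets, 14 were higher and 20 lower, and at that level stood 1 higher gene (Gsr, glutathione reductase, 0.26) and 4 lower ones, such as Gstt1 (-0.54) and Gstt2 (-0.24). Without the libraries high in Fabp6 the medians of the phase I, conjugation and NRF2 lists were 0.084, 0.021 and 0.036.

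The list of epithelial injury and antimicrobial response genes had the most members at a low p on the higher side. Of 40 members 31 were tested, 22 higher and 9 lower, with a median of 0.375 against 0.0164 for all tested genes. At an unadjusted p below 0.05 stood 11 higher members and 1 lower member, where 2.53% and 3.45% of all genes did. The 11 include Sprr2a1, Sprr2a2 and Sprr2a3, which are not independent because their reads cannot be split with certainty. None of the tested members passed the adjusted threshold. Without the libraries high in Fabp6 the counts were 7 and 1 and the median was 0.029. Without combination 2 and 7 they were 9 and 1, with a median of 0.444. Over all genes the shares were 1.79% higher and 3.25% lower in the former setting, and 1.64% and 2.01% in the latter. Of the 12 members named here, Fut2, Sprr2a2, Sprr2a3, Reg3b and Cxcl5 fall under the naming rule, and the others were chosen after their values were seen.

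Small proline-rich proteins of the Sprr2a group cross-link the outer layer of squamous epithelia and are also made by the stressed intestinal epithelium. The 3 copies lie side by side on chromosome 3, and their promoter windows (250 bases before to 50 after the RefSeq start, plus strand, GRCm38.p6) are shown because they display how nearly identical the copies are. Capitals mark the 28 bases at 1 end that lie outside the run of 272 bases shared by all 3 windows, and those of Sprr2a1 and Sprr2a2 are identical over 300 of 300 bases.
Sprr2a1 (chr3:92215585-92215884) and Sprr2a2 (chr3:92250397-92250696): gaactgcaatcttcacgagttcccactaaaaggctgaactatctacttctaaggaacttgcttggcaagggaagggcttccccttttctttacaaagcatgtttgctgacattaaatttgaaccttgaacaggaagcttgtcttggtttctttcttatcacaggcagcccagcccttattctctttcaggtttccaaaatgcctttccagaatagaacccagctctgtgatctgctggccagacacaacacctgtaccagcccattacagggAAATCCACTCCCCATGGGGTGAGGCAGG
Sprr2a3 (chr3:92285054-92285353): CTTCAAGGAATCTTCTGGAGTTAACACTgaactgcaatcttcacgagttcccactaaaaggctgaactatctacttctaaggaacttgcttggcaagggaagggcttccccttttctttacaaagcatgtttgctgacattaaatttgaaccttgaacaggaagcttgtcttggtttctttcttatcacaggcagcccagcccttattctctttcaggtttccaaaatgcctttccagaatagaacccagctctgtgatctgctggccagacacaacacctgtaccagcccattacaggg
Among the transcripts, 95.4% of the 31-base words of Sprr2a1 and 97.8% of those of Sprr2a2 occur in another copy, against 73.4% for Sprr2a3, and the annotated models of Sprr2a1 and Sprr2a2 overlap. The split of reads among these copies is therefore uncertain. Sprr2a2 took most of the reads, with 133, 182 and 268 CPM in controls and 144, 429 and 784 CPM in treated mice. Every treated mouse but 1, combination 5, exceeded the highest control (log2 difference 1.26 ± 0.31, adjusted p = 0.323 in edgeR, 0.0421 in DESeq2). Within the batches the difference was 1.056, 1.37, 1.318 and 0.09. Sprr2a1 and Sprr2a3 had log2 differences of 1.21 ± 0.32 and 1.46 ± 0.38, both with an adjusted p of 0.351. Sprr1a, a related gene, did not exceed 0.636 CPM in controls and reached 3.24 CPM in treated mice (log2 difference 2.27 ± 0.79, adjusted p = 0.728).

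Reg3b and Reg3g encode lectins that epithelial cells secrete against bacteria, under control of signals that act through STAT3. Their windows are shown because both genes ran from far below to far above the control range, with capitals on matches, on either strand, to TTCNNNGAA (the letters of a STAT element) and to TATAAA (a core promoter box), which do not overlap each other here.
Reg3b (chr6:78370635-78370934, plus strand): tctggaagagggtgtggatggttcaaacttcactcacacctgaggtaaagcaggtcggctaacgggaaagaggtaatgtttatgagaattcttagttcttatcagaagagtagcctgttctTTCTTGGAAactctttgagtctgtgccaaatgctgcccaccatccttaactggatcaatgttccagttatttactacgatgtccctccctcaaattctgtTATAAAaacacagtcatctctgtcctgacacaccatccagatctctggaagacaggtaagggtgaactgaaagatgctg
Reg3g (chr6:78468825-78469124, minus strand): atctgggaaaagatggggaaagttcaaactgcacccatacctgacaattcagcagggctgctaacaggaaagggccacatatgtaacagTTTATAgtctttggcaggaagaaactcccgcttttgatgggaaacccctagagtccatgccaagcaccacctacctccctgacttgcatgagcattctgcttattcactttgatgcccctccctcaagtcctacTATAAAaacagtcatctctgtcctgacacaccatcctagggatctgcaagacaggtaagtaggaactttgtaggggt
Of 32817 promoter windows of this length, 8.29% held TTCNNNGAA and 13.6% held TATAAA, and a match is a description of letters only. Reg3b was read at 296, 536 and 1217 CPM in controls and 55.2, 1077 and 4769 CPM in treated mice, and Reg3g at 92.9, 145 and 327 CPM and at 24.2, 318 and 1683 CPM. For both, combination 7 was the lowest and combination 2 the highest of all 15 libraries. The log2 differences were 1.47 ± 0.70 and 1.74 ± 0.67 (adjusted p = 0.816 and 0.737). Reg3a went the other way, at 104, 206 and 300 CPM in controls and 63, 131 and 189 CPM in treated mice (log2 difference -0.77 ± 0.27, adjusted p = 0.728). It was the 1 member lower at an unadjusted p below 0.05.

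The oxidase pair Duox2 and Duoxa2, which releases hydrogen peroxide at the epithelial surface, also ran from below to above the control range in the treated group. Duox2 stood at 10.7, 18.8 and 30.7 CPM in controls and 3.18, 59.9 and 169 CPM in treated mice. Combination 1 to 5 lay above every control, and combination 6 and 7 below. Its log2 difference was 1.59 ± 0.56 (adjusted p = 0.728), with -2.19 in batch 1, which held those 2 mice, and 2.95, 1.784 and 2.03 in the others. Duoxa2 had a log2 difference of 2.28 ± 0.68 (adjusted p = 0.591), which was 0.98 without the libraries high in Fabp6. Saa1, an acute-phase protein of epithelium and liver, had a median of 0 CPM in controls and 0.66 CPM in treated mice, where combination 2 reached 16.3 CPM. The neutrophil attractant Cxcl5 stood at 0, 0.286 and 0.804 CPM in controls and 0.484, 0.707 and 3.45 CPM in treated mice (log2 difference 1.64 ± 0.53, adjusted p = 0.716).

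**Figure D3:**
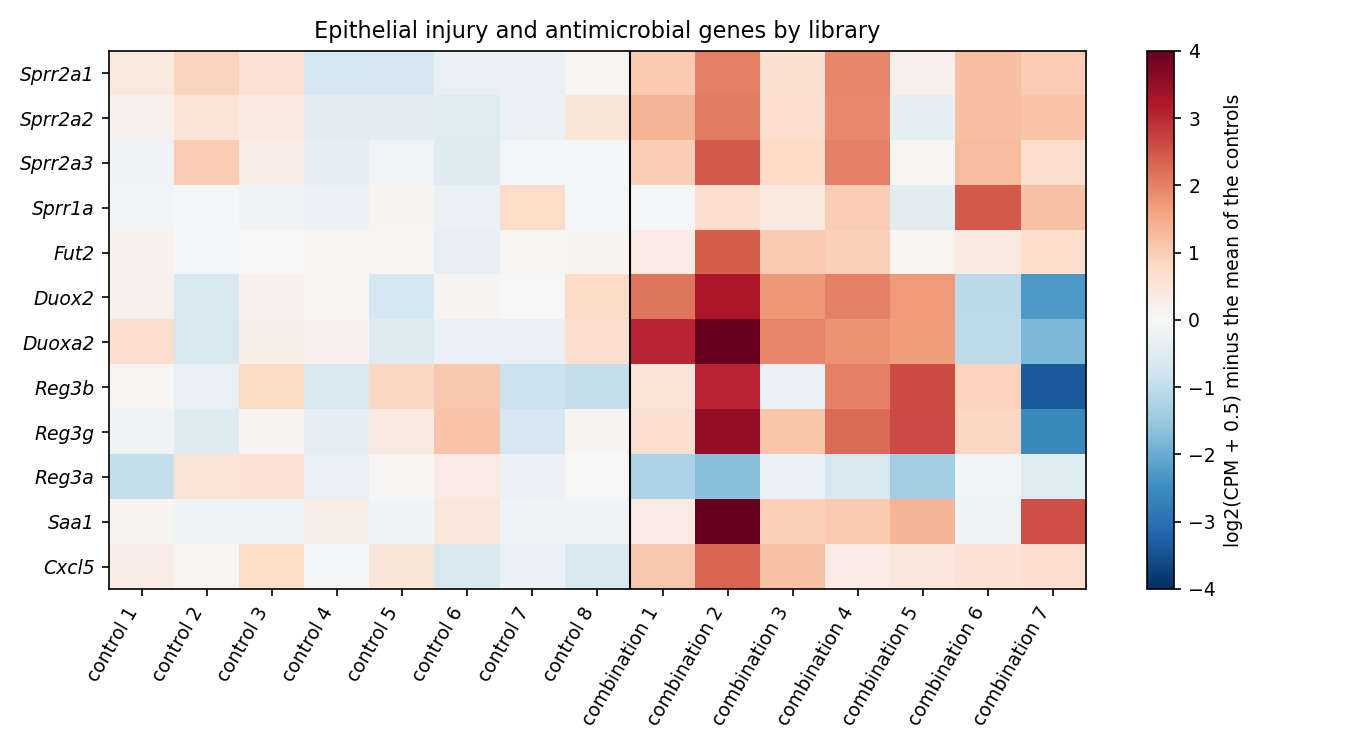
Difference of each library from the control mean for 12 epithelial injury and antimicrobial genes, as log2(CPM + 0.5), with controls left and combination libraries right of the line. Sprr2a2 is above the control mean in all combination libraries but combination 5, while Duox2, Duoxa2, Reg3b and Reg3g are below it in combination 7, the first 2 of them in combination 6 too.

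Over all tested genes 2.53% were higher and 3.45% lower at an unadjusted p below 0.05. Among epithelial lineages, goblet cell genes were mostly lower: 14 of 15 tested, with a median of -0.193 and 2 at that level. These were Tff3, a trefoil peptide of mucus, at 1450, 1664 and 2248 CPM in controls and 945, 1313 and 1560 CPM in treated mice (log2 difference -0.52 ± 0.18, adjusted p = 0.728), and Zg16, a mucus lectin (-0.56 ± 0.19, adjusted p = 0.728). Most treated mice lay below the lowest control for both. Paneth cell genes were lower in 17 of 20 with a median of -0.455. At an unadjusted p below 0.05 stood 1 lower member, Defa31, a defensin (-0.58 ± 0.26, adjusted p = 0.811), and 1 higher member, Reg3b, described above. Paneth genes differed widely within the treated group, whose summed level ran from 1540 CPM to 29400 CPM. Their median was -0.762 without the libraries high in Fabp6 and -0.247 without combination 2 and 7. Enteroendocrine genes were lower in 18 of 21 (median -0.181), and 0 stood at an unadjusted p below 0.05. Brush border genes were lower in 25 of 32 and lipid absorption genes in 19 of 26, with medians of -0.136 and -0.157. Without the libraries high in Fabp6 the last 2 medians were 0.015 and 0.05. Cd36, a fatty acid translocase, was 1 of 2 lipid absorption genes at an unadjusted p below 0.05 (-0.58 ± 0.27, adjusted p = 0.816). The iron importer Slc11a2 was the only 1 of 32 brush border genes at that level, near the share of all genes (0.27 ± 0.13, adjusted p = 0.816). Tuft cell, stem cell and cell cycle lists had medians of 0.018, 0.047 and 0.014, and the only 1 of their genes at an unadjusted p below 0.05 was Rgs13, a regulator of G-protein signalling (-0.63 ± 0.20, adjusted p = 0.716).

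Lymphocyte genes were lower as lists. Of 26 tested T and NK cell genes, 25 were lower, 5 of them at an unadjusted p below 0.05, with a median of -0.478. Of all tested genes 3.45% were lower at that level. Cd3d, a chain of the T cell receptor complex, was read at 2.31, 2.95 and 4.6 CPM in controls and 1.05, 1.6 and 3.6 CPM in treated mice (log2 difference -0.76 ± 0.27, adjusted p = 0.728). Combination 5 and 6 lay within the control range and the other treated mice below every control. Trdc, the constant segment of the delta chain, and Klrd1, an NK receptor, had -0.68 and -0.70. The summed level of the list ran from 114 to 201 CPM in controls and from 46.8 CPM (combination 7) to 250 CPM (combination 5) in treated mice. Without the libraries high in Fabp6 the count at an unadjusted p below 0.05 was 1 and the median -0.309. Without combination 2 and 7 they were 1 and -0.198. In both settings the 1 of 26 genes (3.85%) lay near the share of all genes, 3.25% and 2.01%. All 15 tested B cell genes were lower, with a median of -1.422 and 3 at an unadjusted p below 0.05. Pax5, which fixes B cell identity, was read at 0.162, 0.602 and 13.7 CPM in controls and 0, 0.112 and 0.396 CPM in treated mice. The level of 13.7 CPM was that of control 5. The summed B cell level was 263 CPM in that library and 21.4 to 78.6 CPM in the other controls, against 12.7 to 67.1 CPM in treated mice. Without control 5 the median was -0.415. At an unadjusted p below 0.05 were 9 genes without the libraries high in Fabp6 (median -1.797) and 0 without combination 2 and 7 (median -1.26), where 3.25% and 2.01% of all genes were lower at that level. Lymphoid follicles in the piece taken are a known source of such genes, and their part in the result was not tested.

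Presentation genes shared the lower side, where 3.45% of all tested genes stood at an unadjusted p below 0.05. MHC class I presentation had 16 of 22 lower (median -0.119), 3 at an unadjusted p below 0.05: Psmb8, a subunit of the immunoproteasome (-0.56 ± 0.19), H2-T23 (-0.33 ± 0.12) and B2m (-0.41 ± 0.17), with adjusted p-values of 0.728, 0.728 and 0.764. All 13 tested MHC class II genes were lower, 1 at an unadjusted p below 0.05, with a median of -0.232 that was -0.08 without combination 2 and 7. Interferon-stimulated genes had a median of -0.06, with 0 of 44 at an unadjusted p below 0.05. Plasma cell and macrophage lists had medians of 0.031 and 0.043, which turned to -0.128 and -0.133 without the libraries high in Fabp6. Cd209a, a lectin of dendritic cells, was lower (-0.95 ± 0.31, adjusted p = 0.716), and Itgam, an integrin of myeloid cells, was higher (0.48 ± 0.18, adjusted p = 0.728). Of 14 neutrophil genes 3 passed the filter, and Csf3r, the receptor of G-CSF, had 0.56 ± 0.26 (adjusted p = 0.816). Among chemokines Ccl6 and Ccl25, an epithelial attractant of lymphocytes, had -0.60 and -0.34 (adjusted p = 0.728 and 0.765).

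All 7 tested erythroid genes were higher, 6 at an unadjusted p below 0.05, with a median of 1.503. The shares of all tested genes at that level were 2.53% higher and 3.45% lower. Alas2, which starts haem synthesis in red cells, was read at 0.606, 1.31 and 3.59 CPM in controls and 0.53, 5.32 and 29 CPM in treated mice (log2 difference 1.98 ± 0.61, adjusted p = 0.641). The globin gene Hbb-bs stood at 2.2, 4.65 and 6.62 CPM and at 1.59, 11.2 and 50.7 CPM. The 4 treated mice of batches 2 and 3 lay above every control for Alas2, whereas the other 3 did not. Without the libraries high in Fabp6 the median was 0.862 and 0 genes stood at an unadjusted p below 0.05, and without combination 2 and 7 it was 1.175 with 3 genes. Over all genes 1.79% and 1.64% were higher at that level in these settings. Globin copies share bases too: 92.6% of the words of Hba-a2 occur in its twin. All 16 smooth muscle genes were higher, 1 at an unadjusted p below 0.05, with a median of 0.334 that was 0.049 without combination 2 and 7. The pancreatic acinar list did not mark acinar tissue here: 12 of its 21 measured members were not tested, and Amy2a5, Cela3b, Pnlip, Prss1, Try4 and Try5, which encode digestive enzymes of the pancreas, had 0 counts in all 15 libraries. Of the 9 tested members 8 were lower, 3 at an unadjusted p below 0.05 (median -0.52), and 1 without combination 2 and 7. Of the 3, Clps (-0.80) and Pnliprp1 (-0.86) encode proteins of lipid digestion, and Zg16, counted above, is the other. Adipocyte, fibroblast, endothelial and enteric nerve lists had 0 genes at that level. The medians of the last 3 turned from 0.108, 0.043 and 0.026 to -0.112, -0.106 and -0.12 without the libraries high in Fabp6.

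Nuclear-encoded subunits of the respiratory chain were lower in 48 of 49, with a median of -0.226. At an unadjusted p below 0.05 were 13 lower ones, where 3.45% of all tested genes were lower. Examples were Atp5o, of ATP synthase (278, 404 and 545 CPM in controls, 205, 262 and 395 CPM in treated mice, log2 difference -0.46 ± 0.17), Cox7b, of cytochrome oxidase (-0.56 ± 0.21), and Ndufb3, of complex I (-0.38 ± 0.15). Their adjusted p-values were 0.728, 0.728 and 0.737. Cytosolic ribosomal protein genes were lower in 52 of 54 (median -0.25), 7 at an unadjusted p below 0.05, with Rps25 at -0.52 ± 0.24 (adjusted p = 0.814). Without combination 2 and 7 the counts at that level were 2 for the respiratory chain and 0 for the ribosome, and the medians were -0.215 and -0.191. In that setting 2.01% of all genes were lower at that level, and the 2 of 49 respiratory chain genes (4.08%) lay near that share. The counts were 9 and 22 without the libraries high in Fabp6, where the share of all genes was 3.25%. With all libraries, the respiratory chain list had a mean log2 CPM of 7.41 (SD 0.26) in controls and 7.15 (SD 0.28) in treated mice. The ribosomal list had 8.41 (SD 0.13) and 8.11 (SD 0.38). RNA integrity scores were low in this tissue per the labels, and combination 7 had the highest mitochondrial and Rn7s1 shares. The part of either in these counts was not tested. Among 27 genes of glucose transport and glycolysis, 4 were higher at an unadjusted p below 0.05, against 2 higher and 1 lower without combination 2 and 7. Over all genes the shares were 2.53% higher in the former fit, and 1.64% higher and 2.01% lower in the latter. Hk2, hexokinase 2, stood at 23.9, 30.9 and 36.8 CPM in controls and 27.8, 43.9 and 91.7 CPM in treated mice (log2 difference 0.62 ± 0.17, adjusted p = 0.391). Eno3 and Pfkl, a muscle enolase and a phosphofructokinase, had 0.46 and 0.45. Bhlhe40, a repressor tied to the clock and to hypoxia, was higher (0.39 ± 0.10, adjusted p = 0.351), and Nr1d2, another clock repressor, was lower (-0.26 ± 0.10, adjusted p = 0.728). Of 19 tested hypoxia genes (median 0.121), 1 was higher at an unadjusted p below 0.05, Egln3 (0.43 ± 0.15). Of 12 tested iron genes (median -0.017), 2 were, Tfrc, the transferrin receptor (0.63 ± 0.25), and Slc11a2. The share of all genes was 2.53%. Of 18 glucocorticoid-responsive genes 10 were lower and 8 higher, and 2 lower ones stood at an unadjusted p below 0.05, Tsc22d3 (-0.35 ± 0.13) and Angptl4 (-0.68 ± 0.30). Lists for the integrated stress response, chaperones, immediate early genes and aminoacyl-tRNA synthetases had medians of -0.028, -0.013, 0.053 and 0.07.

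**Figure D4:**
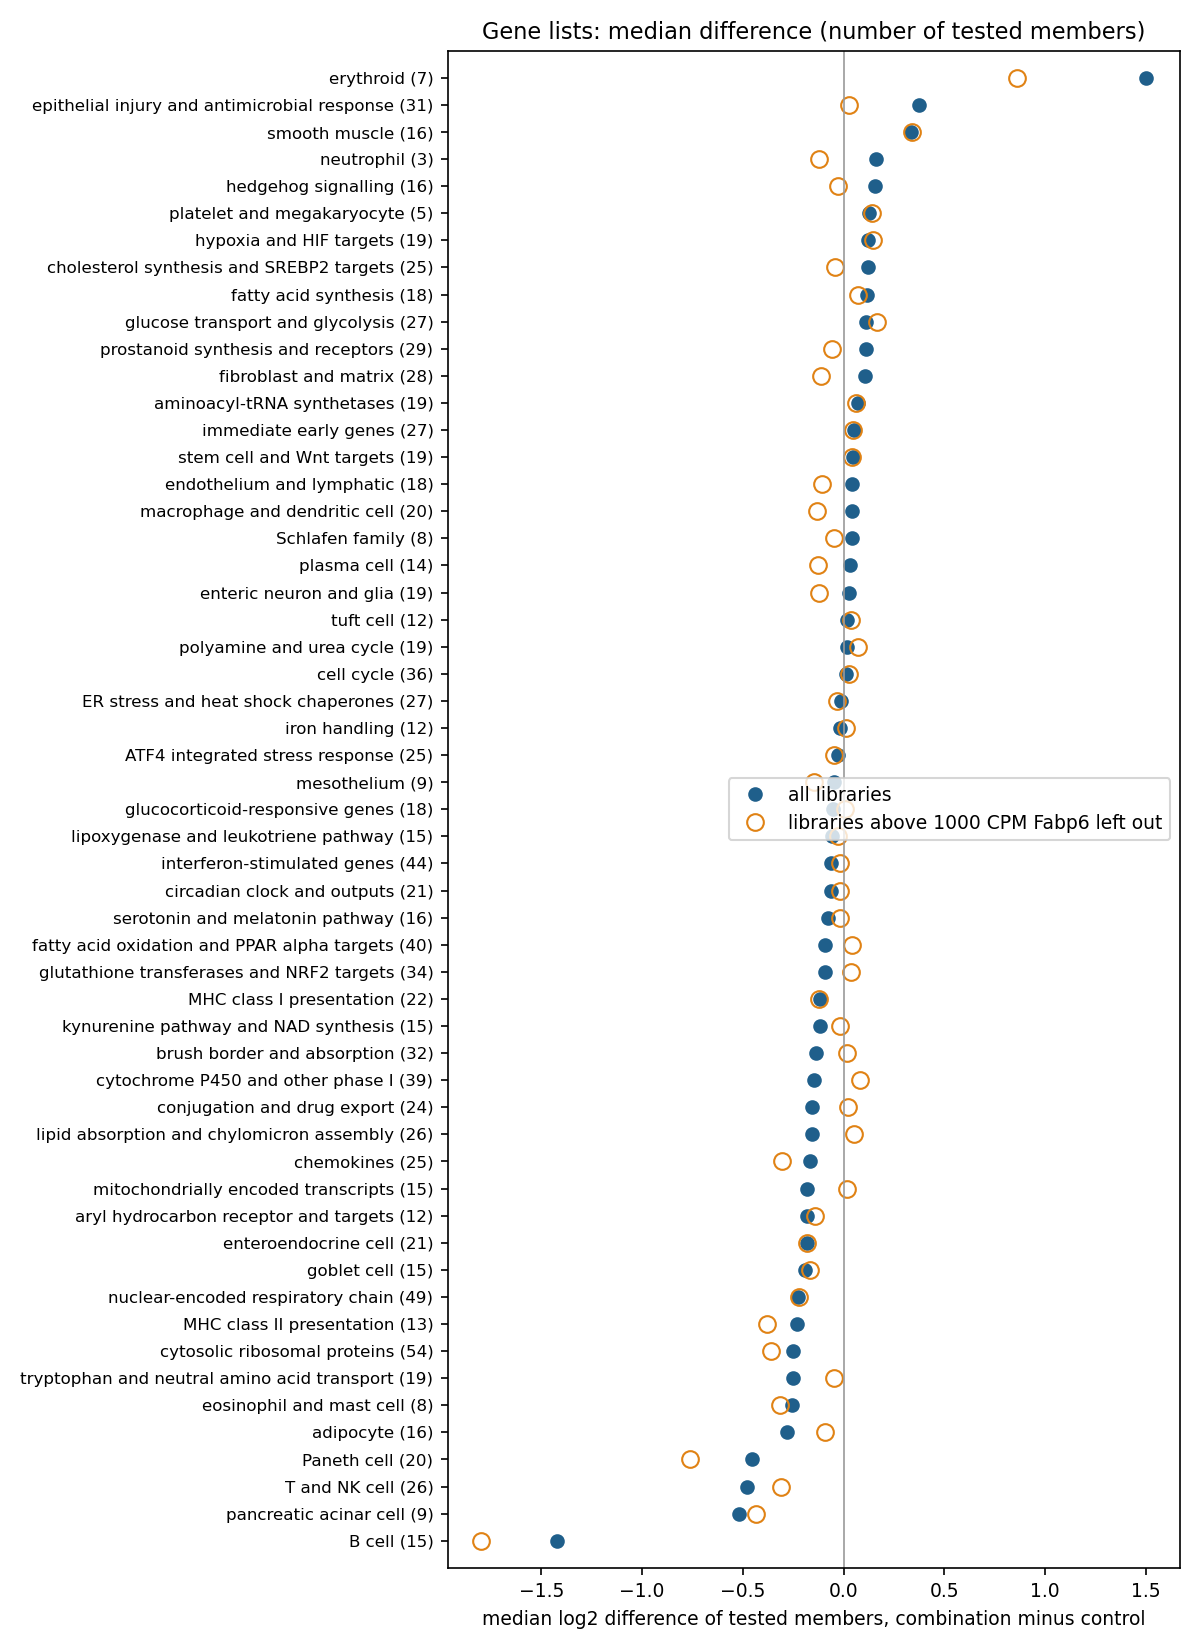
Median log2 difference, combination minus control, of the tested members of each gene list (number in brackets) that had at least 3 of them, with all libraries (filled) and without libraries above 1000 CPM of Fabp6 (open). Erythroid (1.503) and B cell (-1.422) genes lie at the ends, and the injury list moves from 0.375 to 0.029.

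The combination was also set beside each single treatment. These comparisons share the 7 combination libraries with the one above. Against naproxen alone DESeq2 called 10 genes, which were predicted genes and immunoglobulin segments except for Cyp2e1 and Ccl7. No gene was called by edgeR (lowest adjusted p 0.996), and 629 of 17185 stood at an unadjusted p below 0.05 (3.66%). That number was 2619 without the libraries high in Fabp6, of which naproxen had 3 (lowest adjusted p 0.31). It was 1079 without combination 5, 956 without combination 7, 1013 without naproxen 3 and 309 with only the libraries of both groups. Leading genes by p among those with a mean of 1 CPM or more in either group, predicted genes and receptor segments left out, included Xkr8, a scramblase of dying cells, Cyp2e1, Tubb2a and Hpdl, each higher in the combination. Xkr8 had a mean of 4.75 ± 0.698 CPM (SD, n = 7) in the combination group and 3.31 CPM with naproxen (log2 difference 0.51, adjusted p = 0.996). Cyp2e1 had a mean of 3.88 ± 3.94 CPM and was at 0.985 CPM with naproxen (2.21). Against tryptophan alone 1141 genes stood at an unadjusted p below 0.05 (6.64%), 772 higher and 369 lower, with 0 called by edgeR (lowest adjusted p 0.0802) and 10 by DESeq2. Here the number was 512 without the libraries high in Fabp6, of which the tryptophan group had 3 (lowest adjusted p 0.792). It was 646 without combination 1, 1825 without combination 7, 753 without tryptophan 2, 1746 without tryptophan 4 and 2128 with a B cell covariate. Gadd45g, a stress-induced regulator of growth arrest, had the smallest p: 11.1, 12.4 and 20.1 CPM in the combination group and a mean of 8.02 CPM with tryptophan (log2 difference 0.82, adjusted p = 0.0802). Itih3, also among the leading genes against control (1.89, adjusted p = 0.0802), Itgam (0.90, adjusted p = 0.0911) and Tmsb10, an actin-binding peptide (0.53, adjusted p = 0.116), were higher too, and Shisa2 was lower (-0.61, adjusted p = 0.116). Those values are from edgeR. DESeq2 called each of these genes, with an adjusted p of 0.000705 for Gadd45g and Itih3. It was 0.00275 for Itgam, 0.00994 for Shisa2 and 0.0105 for Tmsb10.

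The leading genes of the main comparison stood as follows in the 4 groups. Retreg1 had means of 89.4 CPM in controls, 56.7 with naproxen, 75.7 with tryptophan and 46.4 with both. Selenop had means of 8249, 4923, 6292 and 4438 CPM in that order. For both genes the 2 groups given naproxen had the lower means. Sprr2a2 had means of 192, 529, 248 and 462 CPM, so that the combination did not exceed naproxen alone (log2 difference -0.22, adjusted p = 0.996 in edgeR). Smox had 13.3, 19.9, 13.2 and 22.4 CPM, with a log2 difference of 0.16 between the combination and naproxen (adjusted p = 0.996). Cemip had 3.48, 5.05, 5.29 and 7.86 CPM, where the combination had the highest mean (log2 difference 0.59 from naproxen, adjusted p = 0.996). Cxcl5 had 0.321, 0.351, 0.289 and 1.18 CPM, with log2 differences of 1.69 from naproxen (adjusted p = 0.996) and 1.84 from tryptophan (adjusted p = 0.644). Whether naproxen acted differently in the presence of tryptophan is a test of interaction and was not tested here.

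**Figure D5:**
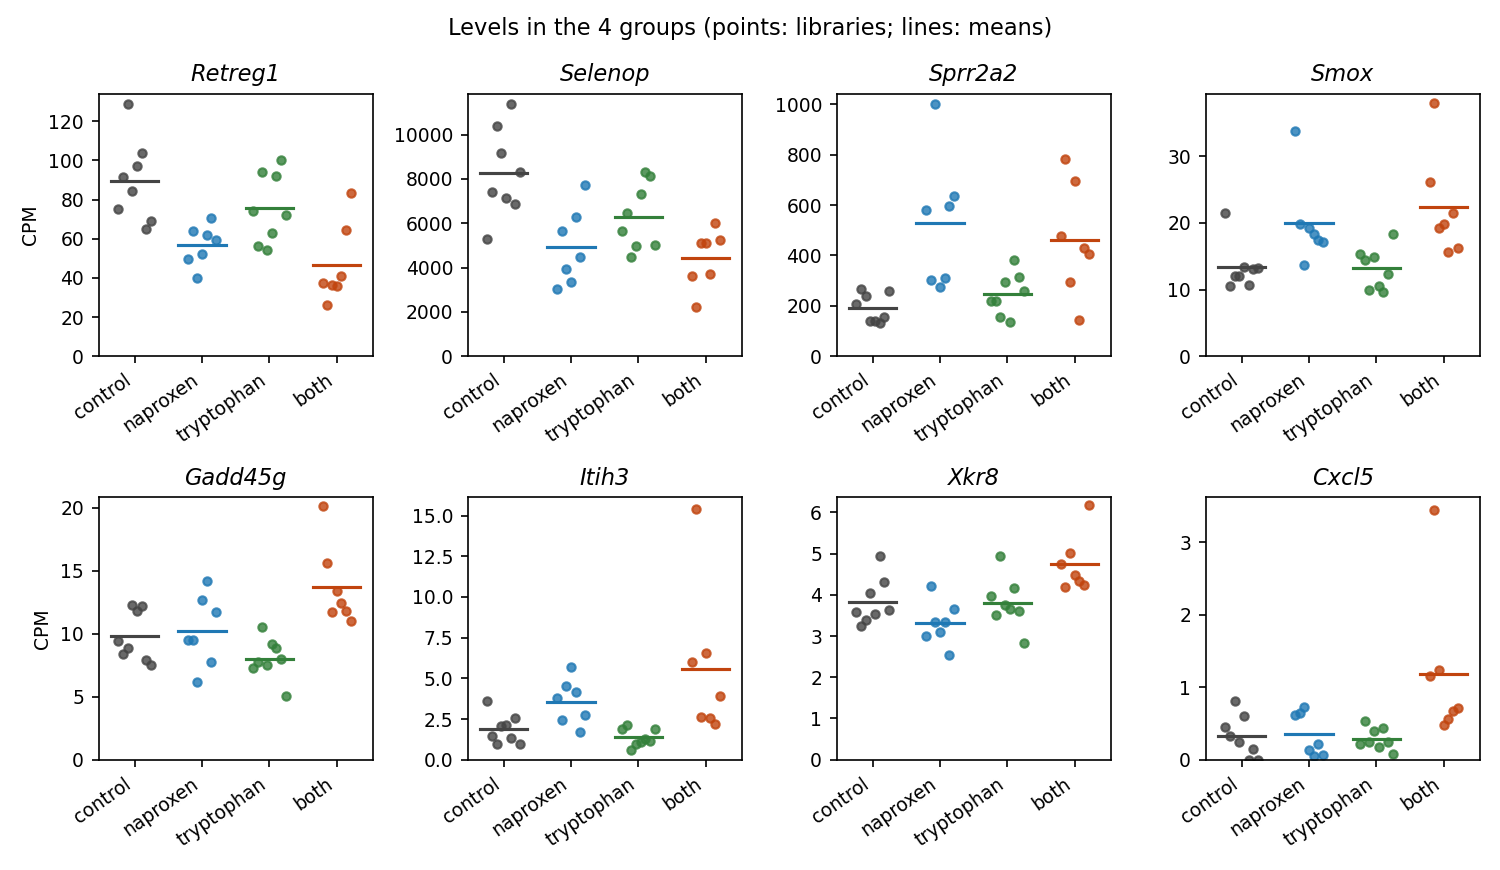
Levels in CPM of 8 genes in control (8), naproxen (7), tryptophan (8) and combined treatment (7) libraries, as points with the group mean as a line. Retreg1 and Selenop have lower means in both naproxen groups, and Gadd45g and Xkr8 have their highest mean with both agents.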

How the data were processed

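RNA of 38 jejuna in 5 groups was sequenced after ribosomal RNA depletion with a stranded total RNA kit, per the labels' protocols, which cite low RNA integrity. The authors deposited estimated counts for each gene. Salmon 1.9.0, R 4.2.2 and GRCm38 are named in the submitters' processing notes, and the way from transcripts to genes is not stated there. Of the jejunum values 24.5% were not whole, and all were rounded.

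Each library was taken as 1 animal, since the labels number animals within treatment and batch. In R 4.3.3, genes were kept with filterByExpr (minimum count 10), libraries were scaled by TMM, and edgeR 4.0.16 fitted group and dissection batch over all 38 libraries with robust quasi-likelihood F tests (its legacy method). Benjamini-Hochberg adjustment ran over all 17185 tested genes. Log2 CPM used a prior count of 2, and within-batch differences are differences of its means. The scripts were first tested on simulated data. Alternatives used DESeq2 1.42.0, limma 3.58.1 and sva 3.50.0, other filters, scalings and covariates, and left out libraries. The setting without libraries high in Fabp6 (above 1000 CPM) left out 1 control, 3 naproxen, 3 tryptophan, 2 combination and 1 celecoxib library. It kept no combination mouse of dissection batch 2. The part of fewer libraries in its counts was not tested. The tests count the spread between animals, and depth limits the precision of genes under about 1 CPM.

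Named genes were the 12 with the smallest p, a group mean of 1 CPM or more and 1 sign of the difference across the 4 batches, without predicted genes or immunoglobulin and T cell receptor segments. To these were added up to 3 members of each of 55 lists by smallest p, the genes of naproxen's and tryptophan's first steps, and 5 genes for each other comparison. Not all are printed. Genes and lists were chosen with earlier results of these data known. Members of a list were read in the same libraries, so counts of members higher or lower are not counts of independent observations. Coordinates come from the GENCODE annotation of GRCm38, and promoters from RefSeq (GRCm38.p6).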

Additional observations from a re-analysis of the deposited data

Results flagged for a closer look

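In each group the highest and lowest library of every named gene and list was set against the others, and 23 of 314 sets of values had 1 library far from the rest of its group (Dixon's test on log2 CPM at 95%). Chance alone marks about 1 in 20 groups. Control 1 accounted for 9 of these. It was the highest control for Fabp6 (2560 CPM, others 0.249 to 17.9), Slc10a2 (207 CPM), Ptgs1 (150 CPM), Ahr (40.4 CPM) and Smox (21.5 CPM). It was the lowest for Lct (853 CPM), Pla2g12b (71.7 CPM), Cnih4 (40.6 CPM) and Nr1d2 (113 CPM). Combination 7 accounted for 5: it was the lowest treated library for Defa31 (131 CPM, others 343 to 619), Clps (5.3 CPM), Pnliprp1 (0.265 CPM) and Ntan1 (15.1 CPM), and the highest for Slc11a2 (75.1 CPM).

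Control 8 was the lowest control for Ccl6 (72 CPM) and for the mean log2 CPM of the chemokine list (1.3) and the Paneth cell list (6.72, others 7.97 to 8.49). Combination 5 was the lowest treated library for Tubb2a (28.4 CPM) and for the hypoxia list (mean log2 CPM 4.46). Control 3 was highest for Ido1 (40.2 CPM), control 7 for Klrd1 (4.26 CPM) and control 4 for the glucocorticoid-responsive list (mean log2 CPM 5.18). Control 2 was lowest for the adipocyte list (mean log2 CPM 1.89).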

How the results depend on the processing

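The 0 calls of the main comparison became 10 with DESeq2, 1 with voom, 3 with a surrogate variable as covariate and 1 without combination 2 and 7. The 3 were Smox, Retreg1 and Cemip, and the call without combination 2 and 7 was Retreg1. Over the omissions of single replicates there were 0 to 1 calls (1 without control 7 or without combination 7, both Retreg1). Against naproxen alone DESeq2 gave 10 and single omissions gave 0 to 1 (without combination 6). Against tryptophan alone DESeq2 gave 10, the B cell covariate 9, the ileal marker covariate 7, the surrogate variable 3, the smooth muscle covariate 1, and single omissions 0 to 5 (1 without tryptophan 3, 3 without tryptophan 8 or combination 5, and 5 without combination 7). The cause of these shifts was not tested. With no filter on low counts edgeR called 476, 333 and 773 genes in the 3 comparisons. There its prior degrees of freedom were infinite over 32343 genes, against a median of 3.71 over 17185. The newer quasi-likelihood method of edgeR, added after seeing the data as were the ileal covariate and the omissions of libraries other than single replicates, gave 1 call in the main comparison with no filter and 0 with it.

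Replicate numbers did not pair the libraries: the correlation of same-numbered deviations was over 0.1 in 3 of 7 pairs, and 2 of 7 treated libraries matched their own number best. With a replicate block in place of dissection batch the main comparison had 0 calls, 1149 genes at an unadjusted p below 0.05 and a lowest adjusted p of 0.0619.

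Of the named genes' log2 differences under the alternatives, 3564 kept sign and side of the threshold, 99 passed it and 18 changed sign. They belong to 112 values of 102 genes, some from the comparisons with single treatments. Most of the 99 came from the fit with no filter on low counts, whose prior degrees of freedom were infinite. Ahr (-0.01) turned to 0.0017 with voom, 0.0237 without dissection batch, 0.0251 with the replicate block, 0.0046 with the B cell covariate and 0.0111 without combination 2 and 7, and ran from -0.0632 to 0.0643 over single omissions. Ptgs2 was -0.0564 without the libraries high in Fabp6 and -0.0603 to 0.4901 over single omissions. Hpdl (-0.06) was 0.0041 with the smooth muscle covariate and -0.1365 to 0.0446 over single omissions. Fabp6 (1.55) and Slc10a2 (0.95) turned to -0.1746 and -0.0132 with the ileal marker covariate, which is made from them.

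Depth of 12.15 to 26.91 (in units of 1e6 counts) limits genes near 0, such as Saa1 and Sprr1a.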

Other observations

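Of all tested genes 53.5% were higher, and without the libraries high in Fabp6 it was 9123 of 17316. At an unadjusted p below 0.05, 2.53% of all tested genes were higher and 3.45% lower. Lists not described above held few genes at that level. Of 25 genes of cholesterol synthesis and SREBP2 targets, 20 were higher in the combination group, with a median log2 difference of 0.119 and 0 at that level. This turned without the libraries high in Fabp6, to 8 higher and 17 lower, a median of -0.041 and 2 lower genes at that level. Of 18 fatty acid synthesis genes 11 were higher, and Scd2, a desaturase that makes oleic acid, had 0.70 ± 0.30 (SE, adjusted p = 0.796). It was read at 67.6, 105 and 195 CPM in controls and 65.7, 146 and 420 CPM in treated mice, so the ranges overlapped. Of 40 genes of fatty acid oxidation and PPAR alpha targets 26 were lower, and 1 of them, Angptl4, a secreted inhibitor of lipoprotein lipase, stood at that level. Of the 40, 24 were higher without the libraries high in Fabp6. Hedgehog genes were higher in 13 of 16, with a median of 0.156, and Schlafen genes in 7 of 8, with Slfn4 at 0.47 ± 0.20 (adjusted p = 0.787). Both turned without the libraries high in Fabp6: hedgehog genes had 6 higher and 10 lower (median -0.028), and Schlafen genes 3 higher and 5 lower (median -0.047).

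Around spermine oxidase, the list of polyamine and urea cycle genes had a median of 0.015, with Smox higher and Oaz1, the antizyme that curbs polyamine synthesis, lower at an unadjusted p below 0.05. Oaz1 stood at 200, 269 and 309 CPM in controls and 164, 199 and 274 CPM in treated mice (log2 difference -0.33 ± 0.13, adjusted p = 0.737). Cebpb, a transcription factor of inflammation and stress, was the 1 higher gene of the integrated stress response list at that level (0.51 ± 0.19, adjusted p = 0.728). Ckm, muscle creatine kinase, was the 1 smooth muscle gene there (0.70 ± 0.32, adjusted p = 0.814).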
